A study of Homo sapiens with 40 samples.

Results

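WWTR1, which encodes the transcriptional coactivator TAZ, was examined together with YAP1, TEAD1, CCN1, CCN2, AMOTL2 and LATS2 on 40 arrays of LNCaP, a human prostate cancer line that depends on androgen. WWTR1 was selected on its lower signal under MDV3100 in the control lines, and the other 6 genes were added because they belong to the same pathway. Of the 7 genes, 6 were among the 11853 genes tested. CCN2 lay below the filter on low values, a mean at the level of signal 12.1, and was described but not tested. Each gene is represented by the brightest of the probe sets that the platform annotation pairs with that gene alone, from 17 such probe sets in all.

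The arrays formed 4 groups. All cells were grown in serum-containing medium for 3 days and then received either 10 µM MDV3100, an antiandrogen also known as enzalutamide, or the solvent alone, 0.1% DMSO, and were harvested after 24 h. The 3 control lines are control 1 (title D+E-), control 2 (title D+R-) and control 3 (title M+R-). They are labelled sensitive to MDV3100 and gave 6 DMSO and 6 MDV3100 arrays. The 7 clones, numbered 1, 9, 10, 14, 15, 19 and 24, are labelled insensitive and resistant, and gave 14 DMSO and 14 MDV3100 arrays. Each line and treatment has 2 arrays, replicate 1 and replicate 2, and the labels do not say whether these were separate cultures. A p-value from the control lines alone thus covers just the spread between arrays as labelled. Most other tests use 1 value per line, so their p-values cover the spread between these lines. Part of either spread may be technical. The labels explain neither the titles of the control lines nor how the clones were derived, and all lines come from 1 cell line. The question asked here is whether YAP1, TEAD1 and their targets moved with WWTR1 in each line and replicate.

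The Hippo pathway is a chain of kinases that ends in LATS1 and LATS2. These kinases phosphorylate YAP and TAZ and so hold them outside the nucleus. When the kinases are inactive, YAP and TAZ enter the nucleus, bind TEAD transcription factors and raise genes such as CCN1, CCN2 and AMOTL2, while AMOTL2 and LATS2 in turn restrain YAP and TAZ. The arrays measure transcripts only, so neither phosphorylation nor the location of the proteins was measured.

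The 2 replicate sets differed as a whole. With each gene's mean removed, none of the 10 replicate 2 lines correlated best with its own label in replicate 1 across genes, which are not independent replicates. The 3 closest matches were to a line of another label: control 2 matched clone 1 at r = 0.748 against -0.328 for its own label, control 3 matched clone 15 at 0.633, and clone 1 matched clone 19 at 0.744. Control 1 of replicate 2 also matched another line, control 3, at 0.510 against 0.0956 for its own label, and it is the 1 control line of that set kept in results without the doubted lines. Values are therefore given per replicate set, and results that rest on these 3 lines, called the doubted lines below, are also given without their replicate 2 arrays. Those fits take control 2, control 3 and clone 1 from replicate 1 alone, while control 1 and the other clones keep both sets. A shift between the sets then enters the difference between clones and control lines. The 9 luminal prostate markers with a named probe set lay above the filter in every group, 0 of 4 leukocyte markers did, VIM was the only basal or mesenchymal marker and VWF the only endothelial marker that did, and 3 of 7 fibroblast markers did. The summed basal or mesenchymal signal ranged from 42.8 to 114 in the control arrays and from 52.3 to 724 in the clones. Its part in the results below was not tested. Ratios of 3′ to 5′ actin probe sets, a sign of RNA quality, ran from 2.59 to 6.59 with a median of 3.69. They ran from 3.18 to 6.59 in replicate 1 and from 2.59 to 3.95 in replicate 2. The part of RNA quality in the differences between the sets was not tested.

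WWTR1, the coactivator itself, was lower under MDV3100 in 18 of 20 pairs of a DMSO and an MDV3100 array of the same line and replicate. In the replicate 1 control lines its signal went from 71.8 to 8.5 in control 1, from 39.8 to 1.3 in control 2 and from 64.1 to 10.5 in control 3. In replicate 2 it went from 121.3 to 14.6, from 38.2 to 11.1 and from 103.8 to 8.4 in the same order. All 6 DMSO signals thus stood above all 6 MDV3100 signals. On the log2(signal + 16) scale, on which every difference here is given, the mean response, MDV3100 minus DMSO, was -1.76 ± 0.46 (SD, n = 6 pairs). This contrast chose the gene, so the value is a description without a test. In that comparison 0.101% of all genes were called at an adjusted p under 0.05. In the control lines, 5 of 6 MDV3100 signals lay below the filter signal of 12.1, where the added 16 limits the size of a difference. In such bulk samples, fewer cells of a type and less RNA per cell cannot be told apart.

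In the clones, WWTR1 split by replicate set. In replicate 1 its signal went from 29.2 to 9.6 in clone 1, from 63 to 9.2 in clone 9, from 71.6 to 11 in clone 10, from 91.6 to 16.6 in clone 14, from 41 to 18.2 in clone 15, from 28.2 to 4.6 in clone 19 and from 24.6 to 6.2 in clone 24. All 7 clones were lower there, and their MDV3100 signals overlapped those of the control lines. In replicate 2 it went from 31.8 to 6.6 in clone 1, from 83.2 to 61.4 in clone 9, from 115.9 to 73.6 in clone 10, from 69.5 to 71.8 in clone 14, from 48.2 to 43.5 in clone 15, from 68.7 to 61.2 in clone 19 and from 65.9 to 86.4 in clone 24. Here clone 1, at 6.6, ended below the control lines, which ended from 8.4 to 14.6, and the other 6 clones had MDV3100 signals of 43.5 or more.

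**Figure D1:**
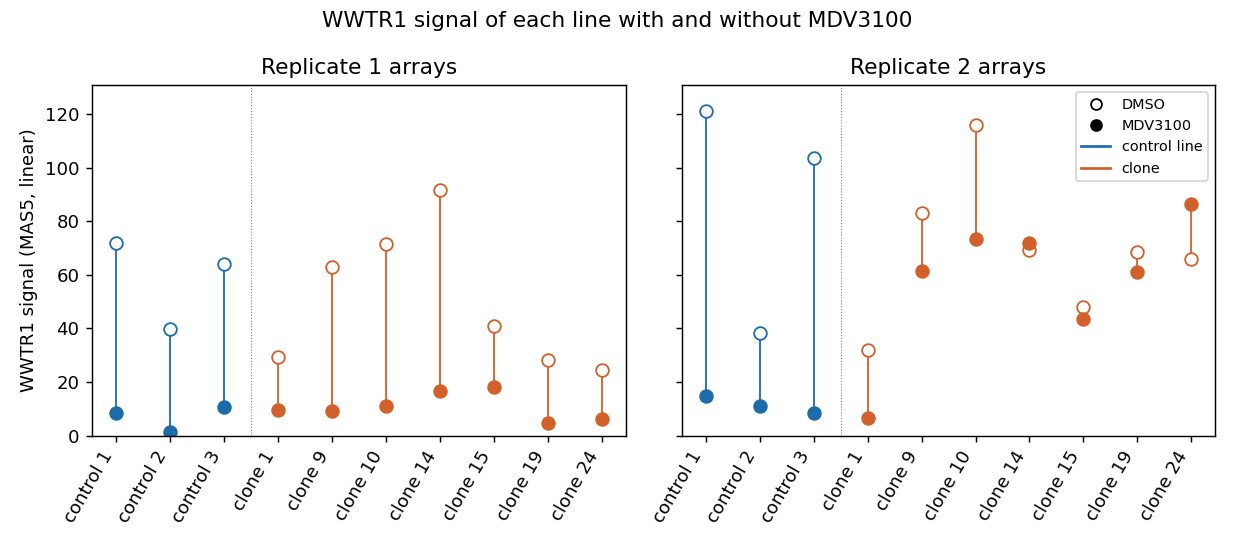
WWTR1 signal (MAS5, linear scale, vertical axis) of each line in DMSO (open circles) and MDV3100 (filled circles), with replicate 1 arrays on the left and replicate 2 arrays on the right. A line joins the arrays of 1 line; in replicate 2 the 3 control lines and clone 1 end at 14.6 or lower, while the other 6 clones end at 43.5 or higher.

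Over the 7 clones, the mean response of WWTR1 was -0.75 (SE 0.10, 95% interval -0.96 to -0.53) and passed the test (limma on clone means, adjusted p = 0.0191). It was the only 1 of the 6 tested members called in the clones, where 0.506% of all genes were called. In replicate 1 the mean was -1.23 (adjusted p = 0.00268), and in replicate 2 it was -0.27 (adjusted p = 0.555). No gene at all, 0% of those tested, was called by limma in the replicate 2 clones, with 1216 genes at an unadjusted p under 0.05. The call was also lost without clone 9 (adjusted p = 0.0529), without clone 14 (adjusted p = 0.0574) and with an intensity trend in the variance (adjusted p = 0.286), whereas with each pair of arrays as a replicate block it was kept at 0.0284. Without the 3 doubted lines of replicate 2 the mean was -0.73 (adjusted p = 0.0270), in a fit that called 14 of all 11853 genes.

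The response of WWTR1 was weaker in clones than in control lines by 1.02 over line means, by 0.48 in replicate 1 and by 1.55 in replicate 2. These differences use the control arrays that chose the gene and are descriptions. The 3 control line means, from -2.004 to -1.34, all lay below the 7 clone means, from -1.13 to -0.27. Within each replicate set the responses overlapped: in replicate 1 the control lines ran from -1.84 to -1.60 with clones down to -1.72, and in replicate 2 the control lines reached -1 with clone 1 at -1.08. Over line means 2.54% of all genes had the control lines below all clones. In DMSO the signal of WWTR1 ran from 38.2 to 121.3 with a median of 67.95 in the control lines and from 24.6 to 115.9 with a median of 64.45 in the clones, and the groups overlapped in both replicate sets. The 2 dimmer WWTR1 probe sets had the same sign as the brightest in all 20 pairs, with mean control responses of -1.46 and -1.29.

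YAP1, the paralogous coactivator, did not follow WWTR1 down in the control lines. Its signal in replicate 1 went from 1791 to 1645.2 in control 1, from 1645.1 to 1811.6 in control 2 and from 1782.6 to 1696.8 in control 3. In replicate 2 it went from 1274.8 to 1601.9, from 1419.2 to 1546.2 and from 1420.8 to 1712.7 in the same order. The control lines thus moved both ways in replicate 1 and were all higher under MDV3100 in replicate 2. Their mean response was 0.11 (95% interval -0.14 to 0.36, limma adjusted p = 0.918). It was not tested against that of WWTR1, whose control values chose the gene.

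**Figure D2:**
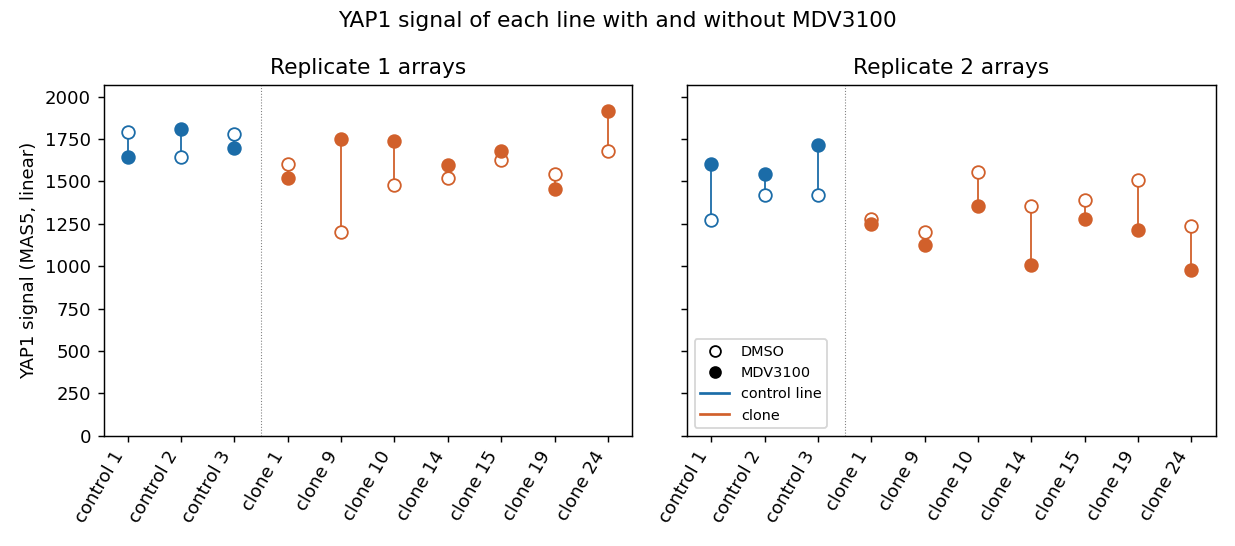
YAP1 signal (MAS5, linear scale from 0, vertical axis) of each line in DMSO (open circles) and MDV3100 (filled circles), by replicate set. All 20 DMSO signals lie between 1202.6 and 1791; in replicate 2 the 3 control lines are higher and the 7 clones lower under MDV3100.

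In the clones YAP1 also differed by replicate set. In replicate 1 the response ran from -0.09 in clone 19 to 0.53 in clone 9, with a median of 0.07 and 5 of 7 clones higher. In replicate 2 all 7 clones were lower under MDV3100, from -0.42 in clone 14 to -0.04 in clone 1, with a median of -0.20. The replicate 2 responses of the control lines, 0.33, 0.12 and 0.27, all lay above those of the clones, a separation in this direction that 2.24% of all genes had. All control lines higher with all clones lower occurred in 0.228% of genes.

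The replicate 2 difference in YAP1 response, clones minus control lines, was -0.45 (95% interval -0.70 to -0.21). It did not pass the adjusted tests: limma over all genes gave an adjusted p of 0.154, and the 2-sided exact permutation test over 120 splits gave p = 0.0167, or 0.167 adjusted over the 10 tests of 5 genes and 2 replicate sets. The control lines all lay above the clones, so 0.0167 is the smallest p that this 2-sided test over 120 splits can give. After that adjustment for 1 gene alone it is 0.167, so the exact test could not have passed for YAP1 by itself. In that comparison limma called 0% of genes, with 1306 at an unadjusted p under 0.05. In replicate 1 the difference was 0.15 with the opposite sign (adjusted p = 0.620), and over line means it was -0.15 (adjusted p = 0.471). Without the 3 doubted lines, replicate 2 left control 1 at 0.33 against 6 clones from -0.42 to -0.09.

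**Figure D3:**
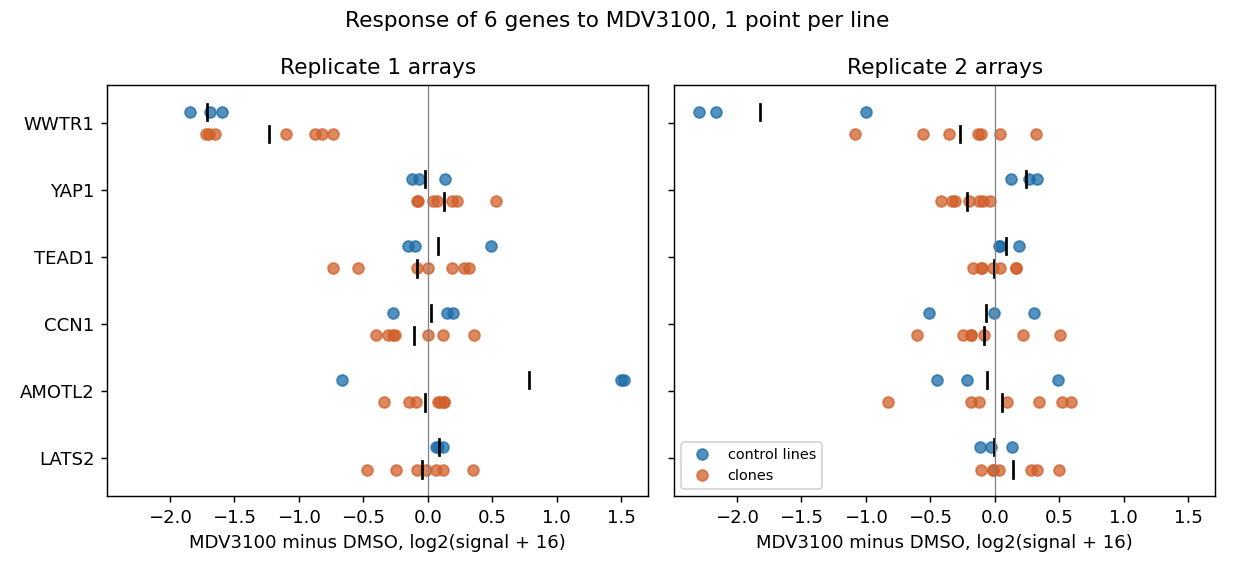
Response to MDV3100 (MDV3100 minus DMSO on the log2(signal + 16) scale, horizontal axis) of the 6 tested genes, 1 point per line, control lines in blue above clones in orange, with the group mean as a vertical bar and replicate sets in separate panels. WWTR1 is far below 0 in the control lines in both panels, while the means of the other genes lie near 0 except AMOTL2 in the replicate 1 control lines, at 0.78.

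Within replicate 2, the responses of YAP1 and WWTR1 across the 10 lines had Pearson r = -0.932 and Spearman rho = -0.903. The WWTR1 responses of the control lines chose the gene and both responses of a line come from the same pair of arrays, so these are descriptions without a test. Without control 3 and control 1, the lines farthest from the median WWTR1 response, r was -0.829 over 8 lines, and without the 3 doubted lines it was -0.927.

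The 7 clones alone, whose values did not choose the gene, had r = -0.757 (2-sided exact permutation test, p = 0.0419) and rho = -0.786 (exact permutation p = 0.0480). Adjusted over 5 genes these were 0.209 and 0.183, so the relation did not pass in the clones. The restriction to clones was chosen after seeing the data. Both responses of a clone also come from the same pair of arrays. Without clone 1 and clone 24, the clones farthest from their median WWTR1 response, r was -0.576 over 5 clones.

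In the replicate 1 set the WWTR1 responses fell into 2 clusters, 6 lines from -1.84 to -1.60 and 4 lines from -1.10 to -0.74. An r of YAP1 with WWTR1 over both clusters is a description only. It was -0.205, so the -0.932 of replicate 2 was not repeated in replicate 1. In replicate 2 the largest gap, 1.09, set control 3 and control 1 apart from the other 8 lines. The YAP1 responses of replicate 1 ran from -0.12 in control 1 to 0.53 in clone 9, both in the cluster of 6. In the cluster of 4 they ran from -0.09 in clone 19 to 0.19 in clone 24. The next brightest YAP1 probe set gave r = -0.688 in replicate 2 and the dimmest gave -0.909, or -0.374 and -0.774 without control 3 and control 1. Over all genes of replicate 2, 0.0928% had an r with WWTR1 at or below that of the brightest YAP1 probe set, and 0.295% had an r as far from 0. This rank uses the control responses that chose WWTR1, so it is a description without a test. The dimmer YAP1 probe sets were less uniform in the replicate 2 clones, with 3 of 7 lower for the next brightest and 5 of 7 lower for the dimmest. In both, control 2 of replicate 2, at -0.13 and 0.10, lay below the highest clone, at 0.14 and 0.12. The control lines thus stood above all clones in the brightest probe set only.

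**Figure D4:**
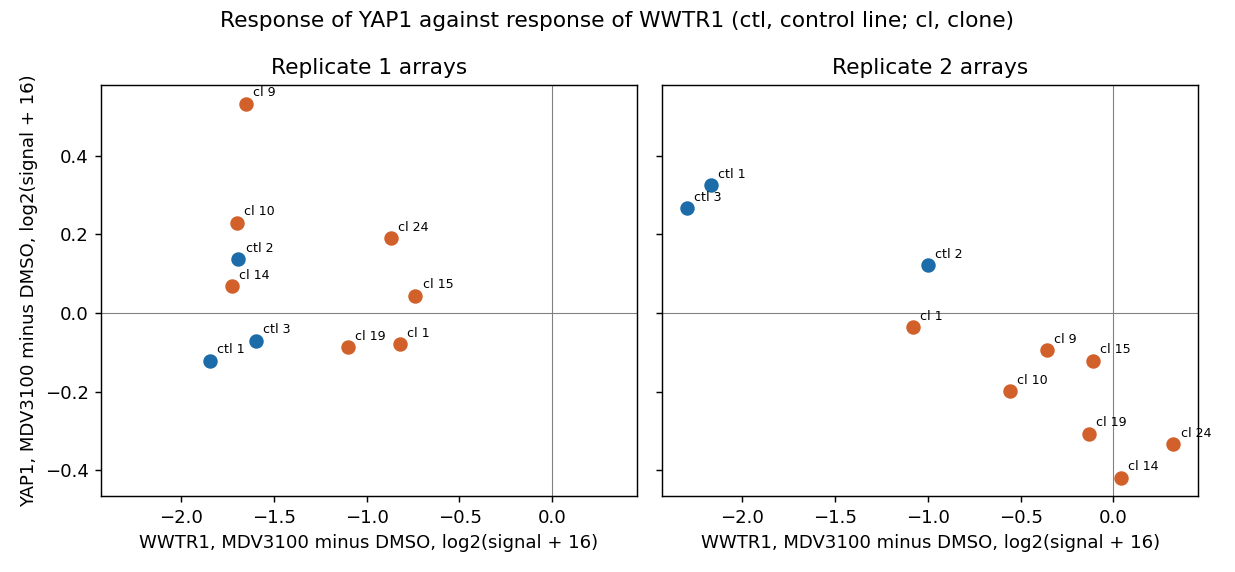
Response of YAP1 (vertical axis) against response of WWTR1 (horizontal axis), both MDV3100 minus DMSO on the log2(signal + 16) scale, 1 point per line with control lines in blue and clones in orange. In replicate 2 the points run from control 1 and control 3 at the upper left to clones 14 and 24 at the lower right (r = -0.932 over 10 lines); in replicate 1 the WWTR1 responses fall into 2 clusters.

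TEAD1, a DNA-binding partner of YAP and TAZ, was not called in any comparison. Its replicate 1 signal went from 338.9 to 315.2 in control 1, from 300 to 429.2 in control 2 and from 318.8 to 285.8 in control 3, and in replicate 2 from 231.3 to 237.5, from 246.7 to 253.7 and from 246 to 282.1. The control lines moved both ways in replicate 1 and were higher in replicate 2, with a mean response of 0.08 (95% interval -0.26 to 0.42). In the clones 7 of 14 responses were lower, from -0.74 in clone 15 to 0.32 in clone 9, both in replicate 1, and the mean was -0.04 (95% interval -0.20 to 0.11). Clones and control lines overlapped in both replicate sets. TEAD1 had the sign of WWTR1 in 9 of 20 pairs, and over the 7 clones of replicate 2 the responses of both had r = 0.647 (exact permutation test, adjusted p = 0.234).

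CCN1, a secreted matrix protein and a textbook target of YAP and TAZ, was dim, with signals from 36.9 to 100.4 on the 40 arrays. In the control lines it went from 46.8 to 56.1, from 55.5 to 63.2 and from 50.5 to 39.3 in replicate 1, and from 66.4 to 41.9, from 82.6 to 82.4 and from 51.3 to 67.2 in replicate 2. No line order was shared between the sets: control 1 was higher in replicate 1 and lower in replicate 2, and control 3 the reverse. The mean response was -0.02 (95% interval -0.33 to 0.29) in the control lines and -0.10 (95% interval -0.26 to 0.06) in the clones, neither of which passed the test. The dimmer CCN1 probe set, with signals from 18.5 to 50.3, was lower in 6 of 6 control pairs. Its responses there ran from -0.30 to -0.05, with a mean of -0.17. In the clones it was higher in 9 of 14 pairs, with a mean of 0.07. That probe set was not tested. In the brightest probe set CCN1 had the sign of WWTR1 in 14 of 20 pairs, and over the 7 clones of replicate 2 its r with WWTR1 was 0.575 (exact permutation test, adjusted p = 0.234).

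CCN2, the other CCN family target, stayed at the bottom of the scale on every array, with signals from 0.3 to 13.9 and a median of 4.05. It was lower in 10 of 20 pairs. The single signal above 12.1 was 13.9 in control 2 of replicate 2 under MDV3100, against 3 in DMSO. At these signals no change in CCN2 could be measured in either direction.

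The upstream sequences of CCN2 and YAP1 are shown because CCN2 carried the most matches to the TEAD-type hexamer among the members while its signal stayed below the filter, and YAP1 is the paralog of WWTR1. The hexamer was searched as GGAATG and CATTCC, which are the 2 strands of 1 motif, in the 250 bases before each gene's start from RefSeq (GRCh38.p14). The sequences read 5′ to 3′ on the gene's strand, with the matches in capitals.
CCN2, chr6:131951373-131951622, minus strand: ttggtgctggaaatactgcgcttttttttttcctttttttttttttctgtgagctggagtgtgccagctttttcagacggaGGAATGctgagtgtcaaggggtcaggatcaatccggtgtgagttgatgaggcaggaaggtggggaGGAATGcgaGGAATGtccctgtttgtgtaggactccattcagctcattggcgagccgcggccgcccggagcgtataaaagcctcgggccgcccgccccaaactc
YAP1, chr11:102110197-102110446, plus strand: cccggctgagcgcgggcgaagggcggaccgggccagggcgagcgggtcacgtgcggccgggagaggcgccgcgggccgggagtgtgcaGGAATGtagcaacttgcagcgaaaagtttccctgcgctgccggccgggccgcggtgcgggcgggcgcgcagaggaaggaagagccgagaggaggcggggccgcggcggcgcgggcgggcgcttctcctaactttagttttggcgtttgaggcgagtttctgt
The CCN2 window held 3 matches, which begin 169, 104 and 95 bases before the start, and the YAP1 window held 1, at 162 bases. Of all 35116 windows of this length, 11.89% held at least 1 match and 0.07974% held 3 or more. For the other members, 1 of the windows of AMOTL2 held 1 match at 69 bases, the other held none, and the windows of WWTR1 and LATS2 held none. These are matches of letters and not measured binding sites. CCN1 and TEAD1 were not matched to a window, so 5 of the 7 members are covered.

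AMOTL2, a target that also binds and retains YAP and TAZ, had the widest responses after WWTR1, and they were not shared by the control lines. In replicate 1 its signal went from 136.8 to 415.8 in control 1 and from 125.1 to 388.7 in control 2, but from 173.3 to 103.1 in control 3. In replicate 2 it went from 62 to 93.3, from 33.2 to 20.1 and from 28.6 to 22.5 in the same order. The responses were thus 1.499, 1.52 and -0.67 in replicate 1, and 0.49, -0.45 and -0.21 in replicate 2. The mean of 0.36 (95% interval -1.04 to 1.76) did not pass the test.

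In the same replicate 1 arrays LATS1, the kinase next to LATS2, responded by 0.876 in control 1, 1.204 in control 2 and -0.21 in control 3, the same order of signs. The actin ratio of those arrays went from 4.08 to 4.26 in control 1, from 3.18 to 6.59 in control 2 and from 4.12 to 4.50 in control 3, and its part in the AMOTL2 values was not tested. In the clones AMOTL2 responses ran from -0.34 to 0.13 in replicate 1 and from -0.83 to 0.59 in replicate 2. Their mean was 0.02 (95% interval -0.19 to 0.23), and AMOTL2 had the sign of WWTR1 in 11 of 20 pairs.

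The DMSO level of AMOTL2 depended on the replicate set. In replicate 1 the control lines, at 136.8, 125.1 and 173.3, stood above the 7 clones, from 11.5 in clone 9 to 53.6 in clone 10 with a median of 32.7. The difference, clones minus control lines, was -1.69 there (limma adjusted p = 0.00637), the only member called in that set, where 6.12% of all genes were called and 5.46% had all control lines above all clones. In replicate 2 the control lines, at 62, 33.2 and 28.6, overlapped the clones, from 27.7 in clone 1 to 154.9 in clone 15 with a median of 79.3. The difference was then 0.70 (adjusted p = 0.152), with the opposite sign, and over line means it was -0.49 (adjusted p = 0.181). Without the 3 doubted lines of replicate 2 it was -1.05 (adjusted p = 0.0264), in a fit that called 705 of all 11853 genes. That fit takes control 2 and control 3 from replicate 1 alone. The mean DMSO signal of the control lines was 145.1 in replicate 1 and 41.3 in replicate 2, so set and class cannot be told apart there.

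**Figure D5:**
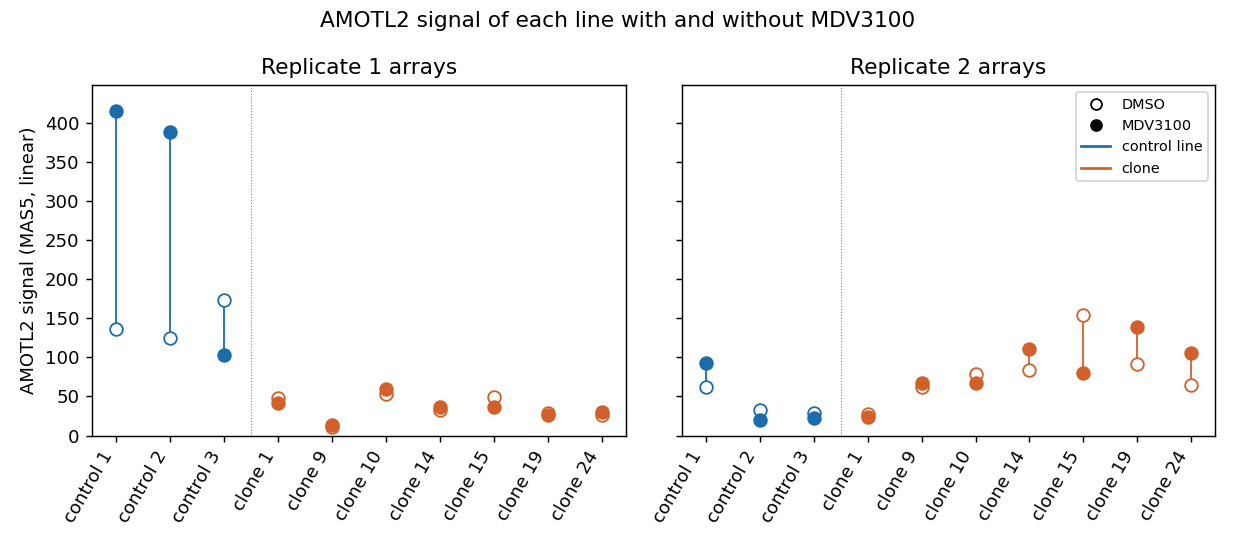
AMOTL2 signal (MAS5, linear scale, vertical axis) of each line in DMSO (open circles) and MDV3100 (filled circles), by replicate set. In replicate 1 the 3 control lines stand above all clones in DMSO (5.46% of genes) and in MDV3100 (3.88%), with 415.8 in control 1 and 388.7 in control 2 under MDV3100; in replicate 2 the groups overlap.

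LATS2, the kinase that restrains YAP and TAZ and is also one of their targets, responded little. In the control lines its signal went from 405.6 to 430.3, from 367.3 to 384.4 and from 440.1 to 480 in replicate 1, and from 300.0 to 330.5, from 186.9 to 182.6 and from 288.1 to 265.3 in replicate 2. The mean response was 0.04 (95% interval -0.46 to 0.54) in the control lines and 0.05 (95% interval -0.10 to 0.20) in the clones. In the clones the responses ran from -0.47 in clone 1 of replicate 1 to 0.50 in clone 14 of replicate 2. Over the 7 clones of replicate 2 its r with WWTR1 was 0.570 (exact permutation test, adjusted p = 0.234). The next brightest LATS2 probe set had responses of 0.86 for control 1, 0.77 for control 2 and 0.17 for control 3 of replicate 1, where the brightest had 0.08, 0.06 and 0.12.

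In DMSO the LATS2 level was lower in clones than in control lines by a difference of -0.43 (95% interval -0.74 to -0.12), which did not pass the test (limma adjusted p = 0.112). In replicate 1 the control lines ran from 367.3 to 440.1 and the clones from 180.4 to 399.6, with a difference of -0.54 (adjusted p = 0.124). In replicate 2 the control lines ran from 186.9 to 300.0 and the clones from 150.4 to 342.7, with a difference of -0.32 (adjusted p = 0.319). The difference was called without clone 1 (-0.49, adjusted p = 0.0216), whose replicate 2 signal of 342.7 was the highest of its set. That fit called 2126 of all 11853 genes. The LATS2 difference was also called without the 3 doubted lines (-0.70, adjusted p = 0.0147), in a fit that called 705 genes. That fit takes control 2 and control 3 from replicate 1 alone, so set and class cannot be told apart in it. Mean DMSO signals of LATS2 in replicates 1 and 2 were 404.3 and 258.3 in control lines, and 280.7 and 206.0 in clones. None of the 6 tested members was called for the DMSO level over line means, where 0.118% of all genes were, and apart from WWTR1 none was called for the difference of responses, where 0.717% were. Of the 6 members tested, 1 had a positive DMSO difference and 5 a negative one, with a median of -0.18, against 48.2% positive and a median of -0.01 over all genes.

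Few genes of the wider Hippo lists were called over both replicate sets. Of 19 core kinases and adaptors, 17 were tested, and their median response was -0.01 in the control lines and 0.02 in the clones, against 0.01 and -1.1e-05 over all genes. TAOK3, a kinase upstream of the core pair, was the 1 called in the clones, where 0.506% of all genes were, with a mean response of -0.28 (adjusted p = 0.0375). Its response was below 0 in 13 of 14 clone pairs and in all 6 control pairs, with a control mean of -0.63 (adjusted p = 0.661). With each pair as a replicate block the control mean was called (adjusted p = 0.0249, in a fit that called 2.58% of genes), as it was in replicate 1 alone (-0.79, adjusted p = 0.0465, with 1.18% called). The clone call was lost without any 1 of clones 1, 9, 10, 14, 15 and 19 (adjusted p from 0.0674 to 0.118) and without the doubted lines (0.0694). FRMD6, an upstream adaptor, was called higher in the replicate 1 clones, by 0.36 (adjusted p = 0.0277, in a set where 1.89% of genes were called), and had -0.07 in replicate 2 (adjusted p = 0.823).

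AMOTL2 not counted, the DMSO levels of 4 of these genes were called in 1 replicate set and not over line means. In replicate 2, where 10.3% of all genes were called, TAOK3 was lower in clones than in control lines by a difference of -1.29 (adjusted p = 0.0413). MAP4K4, an upstream kinase, differed there by -0.82 (adjusted p = 0.0419) and NF2, the scaffold protein merlin, by -0.65 (adjusted p = 0.0422). In replicate 1, where 6.12% were called, STK4, a kinase of the core pair, was lower by a difference of -0.40 (adjusted p = 0.0419). TAOK3 and MAP4K4 had differences of 0.03 and 0.06 in replicate 1, so neither difference was shared by the sets. NF2 had -0.17 in replicate 1 and STK4 -0.23 in replicate 2, of the same sign and not called. AMOTL1, the relative of AMOTL2, had control responses of 0.80, 0.86 and 0.33 in replicate 1 and 0.38, -0.11 and 0.20 in replicate 2, and its mean of 0.41 did not pass the test (adjusted p = 0.852).

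Of 9 DNA-binding and cofactor genes, 7 were tested, and WWTR1 was the 1 called in the clones. The median response of the list was 0.08 in the control lines and -0.04 in the clones. TEAD2 and TEAD3, relatives of TEAD1, had mean responses of 0.20 and 0.07 in the control lines and 0.08 and -0.16 in the clones, none of which passed the test (adjusted p from 0.194 to 0.972).

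Of 22 genes of a YAP and TAZ target signature, 12 were tested, 9 lay below the filter and NUAK2 was not analysed here. The median response was 0.12 in the control lines and 0.02 in the clones, with 7 of 12 positive in each, and in the control lines none of the 12 was called without the replicate block. IGFBP3, which binds insulin-like growth factors, was called higher in the clones by 0.46 (adjusted p = 0.0490). It was higher in all 7 clones of replicate 1, by 0.68 (adjusted p = 0.00624), and in 5 of 7 of replicate 2, by 0.24 (adjusted p = 0.579). The pooled call was lost without any 1 of clones 1, 9, 10, 14, 15 and 19 (adjusted p from 0.0708 to 0.124) and without the doubted lines (0.0922). In the control lines its response was positive in 6 of 6 pairs with a mean of 0.63 (adjusted p = 0.823), which was called with each pair as a replicate block (adjusted p = 0.00982). GADD45A, a stress-response gene of the signature, had a higher DMSO level in clones of replicate 1, by 0.80 (adjusted p = 0.0366), and had 0.35 in replicate 2 (adjusted p = 0.0668). Over line means its difference of 0.57 did not pass (adjusted p = 0.0510). It did with the replicate block (0.0286), which counts both arrays of a line as independent and called 1.8% of genes.

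ARHGEF17, a guanine nucleotide exchange factor of the same signature, was, WWTR1 not counted, the 1 gene of the Hippo lists whose response was called different between clones and control lines, by -0.55 (adjusted p = 0.0366), in a comparison where 0.717% of all genes were called. Its responses in the control lines were 0.48, 0.15 and 0.46 in replicate 1 and 0.41, 0.30 and 0.66 in replicate 2, while the clones ran from -0.22 to 0.47 and from -0.71 to 0.04. The sign of every control pair was thus opposite to that of WWTR1. The call was lost without any 1 of control 1, control 3 and clones 9, 10, 14 and 19 (adjusted p from 0.0584 to 0.223), with the replicate block (0.164) and without the doubted lines (0.0655). The control mean of 0.41 was called with the replicate block (adjusted p = 0.0490). The DMSO level of ARHGEF17 was lower in clones by a difference of -0.59, not called over line means (adjusted p = 0.0545). It was called with the replicate block (0.0325), which counts both arrays of a line as independent and called 1.8% of genes. It was also called in replicate 1 (-0.68, adjusted p = 0.0475, with 6.12% of genes called). Without the doubted lines it was called too (-0.86, adjusted p = 0.0157, with 705 of 11853 genes called). That fit takes control 2 and control 3 from replicate 1 alone, so set and class cannot be told apart in it.

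TGFB2, a growth factor of the signature, separated the replicate sets. Its DMSO signal was 99 to 142.9 in clones 9, 10, 14, 15, 19 and 24 of replicate 2, and 18.4 or lower in clone 1 of replicate 2, in every control line and in every clone of replicate 1. In the MDV3100 arrays of the same 6 clones and replicate, WWTR1 had signals of 43.5 or more. The replicate 2 responses of TGFB2 were 1.25, 1.20, 1.40 and 1.22 in clones 10, 14, 19 and 24. They were -0.09, -0.06 and 0.14 in clones 1, 9 and 15, and -0.47, -0.13 and -0.41 in the control lines. Its difference of responses over line means, 0.63, was the highest of the 12 signature genes tested and was not called. The DMSO difference, clones minus control lines, was 2.18 in replicate 2 (adjusted p = 0.0317, in a set where 10.3% of genes were called) and -0.36 in replicate 1 (adjusted p = 0.0837). Over line means it was 0.91 (adjusted p = 0.0891), or 1.10 without clone 1 (adjusted p = 0.000316), in a fit that called 2126 of all 11853 genes.

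Over all 20 pairs, the genes whose response was most like that of WWTR1 by Pearson r were KCNMA1 (r = 0.941), a potassium channel, SNAI2 (0.933), a transcription factor of mesenchymal change, ST6GALNAC1 (0.916), a sialyltransferase, MAK (0.913), a kinase, and ENDOD1 (0.905). The lowest were COLEC12 (-0.933) and CSMD1 (-0.929). Among the 11852 genes ranked, ARHGEF17 stood at -0.874 and YAP1 at -0.754, with 98.9% of genes above YAP1. TGFB2, of the target signature, stood at 0.720, with 1.10% of genes above it. Its r was 0.762 in replicate 2 and -0.04 in replicate 1, where its signals were 18.4 or lower. These are descriptions over pairs that share arrays, lines and replicate sets. The androgen-induced genes KLK2 and TMPRSS2 had r = 0.716 and 0.728 with WWTR1. KLK2 had responses from -2.31 to -1.78 in the replicate 1 control lines, and of -2.31 in control 1, 0.09 in control 2 and -0.85 in control 3 of replicate 2. In the replicate 1 clones it had -2.60, -2.46 and -2.21 in clones 9, 10 and 14, and from -0.29 to 0.25 in the other 4. The replicate 2 clones ran from -0.56 to 0.26. TMPRSS2 split the same clones of replicate 1, with -1.24, -1.05 and -0.88 against -0.09 to 0.21. Its control responses ran from -1.89 to -1.09 in replicate 1 and were -1.41, 0.10 and -0.74 in replicate 2, where the clones ran from -0.28 to 0.49. Its difference between clones and control lines over line means, 0.85, was called (adjusted p = 0.0439) and was lost with the replicate block (0.167), in each single set (0.231 and 0.304) and without any 1 line other than clones 9 and 14 (0.0617 to 0.276). The replicate 1 responses of the brightest WWTR1 probe set ran from -1.72 to -1.65 in clones 9, 10 and 14. They ran from -1.10 to -0.74 in the other 4, whose DMSO signals were lower, 24.6 to 41 against 63 to 91.6. The scale used here allows dimmer signals a smaller fall. Neither dimmer probe set kept the split. In the next brightest, clones 9, 10 and 14 had -1.42, -1.35 and -1.23, against -1.35 to -0.66 in the other 4. In the dimmest, clones 9, 10 and 14 had -1.47, -1.25 and -0.71, against -1.04 to -0.43. The other tested members ranked within the bulk of genes, from TEAD1 at -0.19 to LATS2 at 0.16.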

How the data were processed

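The authors deposited linear MAS5 signal intensity per probe set for 40 arrays, per the submitters' processing notes; its version is not given in the sources used here. The trimmed mean was 150 in every array, so no further scaling was applied. The number of arrays limits the precision. Values were taken as log2(signal + 16), which understates the change of dim genes. The filter kept 27338 of 54675 probe sets, and the brightest probe set paired with 1 gene gave 11853 genes. Of all probe sets, 41097 had 1 gene, 1801 several and 11777 none.

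For the control lines, limma 3.58.1 (R 4.3.3) compared 6 MDV3100 with 6 DMSO arrays, with the line as a blocking term. The other comparisons used line means. P-values were adjusted by Benjamini-Hochberg over all genes, with 0.05 as the threshold, and the procedure was tested on simulated data. The replicate number pairs both treatments of a line: across genes, same-numbered arrays deviated from their group means together (r = 0.479 to 0.874, 20 pairs), so fits with each pair as a replicate block were added. Correlations with WWTR1 over all 10 lines were planned as tests and are given without a p, since control values of WWTR1 chose the gene. Alternatives were pseudocounts of 1 and 64, quantile normalization, no filter, an intensity trend, single replicate sets and each line left out.

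Named genes were the 7 members, and of each list the genes called over both or in 1 replicate set and up to 4 with the largest responses, the 5 genes most and 2 least like WWTR1, and KLK2 and TMPRSS2; 1 further item is not reported here. The members and lists were chosen with earlier results of these data known. Files name no genome build, so coordinates come from RefSeq windows alone.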

Additional observations from a re-analysis of the deposited data

Results flagged for a closer look

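In 36 groups of 4 to 10 samples checked, 4 held a sample far from the others, and chance alone gives about 1 in 20. Among the replicate 2 clones under MDV3100, WWTR1 was at 6.6 in clone 1, with the nearest clone at 43.5 and the farthest at 86.4. In the same set clone 1 had the highest LATS2 signal, 342.7 in DMSO against 215.2 in the nearest clone and 338.3 in MDV3100 against 218.9. Among the replicate 1 clones in DMSO, YAP1 was at 1203 in clone 9, with the nearest at 1482, and its MDV3100 signal of 1748.1 gives the highest YAP1 response of that set.

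In replicate 2 the YAP1 response of the brightest probe set differed between groups by -0.4541, with every control line higher and every clone lower under MDV3100. Neither dimmer probe set separated the groups. In the next brightest, control 2 was at -0.13 and the highest clone at 0.14, and in the dimmest they were at 0.10 and 0.12. The test of the difference in the brightest probe set did not pass after adjustment (exact permutation p = 0.0167, adjusted 0.167, 3 control lines against 7 clones). These are the smallest values that 1 gene alone could reach in this 2-sided test. Replicate 1 had a difference of 0.15.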

How the results depend on the processing

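Against the fits over both replicate sets, no result reversed with a call on either side. Between the 2 sets, the DMSO levels of AMOTL2, TGFB2, TAOK3 and MAP4K4 had opposite signs, with a call in 1 set. So did the response of FRMD6 in the clones. Counts of all genes called moved most. In the control lines, 12 genes became 140 in replicate 1 alone, 306 with the replicate block and 68 without the doubted lines of replicate 2. In the clones, 60 became 23 and 155 with pseudocounts of 1 and 64, 30 with quantile normalization, 20 without a filter, 0 with the intensity trend (1872 at an unadjusted p under 0.05), 224 in replicate 1, 0 in replicate 2, 14 without the doubted lines and 162 with the replicate block. For the difference of responses, 85 became 11 with a pseudocount of 1, 26 without a filter, 34 with the trend, 1 in replicate 1, 0 in replicate 2, 147 without the doubted lines and 0 with the replicate block, where 1415 genes had an unadjusted p under 0.05 in limma. For the DMSO level, 14 became 7 and 82 with pseudocounts of 1 and 64, 35 with quantile normalization, 75 with the trend, 725 in replicate 1, 1221 in replicate 2, 705 without the doubted lines and 213 with the replicate block. Leaving out 1 line at a time gave 0 to 18 genes in the control lines, 6 to 239 in the clones, 0 to 109 for the difference and 0 to 2126 for the DMSO level; the fits by limma with 0 calls had 241 to 2767 genes at an unadjusted p under 0.05. Where 1 line in a group of 3 is left out, few samples remain. Otherwise the cause was not tested.

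Members called in the clones went from 1 to 0 with the intensity trend and in replicate 2, and to 0 without clone 9 or without clone 14 (range 0 to 1). For the DMSO level they went from 0 to 1 in replicate 1 (AMOTL2), where 725 genes were called. They went to 2 without the doubted lines (AMOTL2 and LATS2, 705 genes called) and to 1 without clone 1 (LATS2, 2126 genes called). The range was 0 to 1 when 1 line was left out. Apart from WWTR1, none was called in the control lines or for the difference when any 1 line was left out. Single members other than WWTR1 kept their sign and side of the threshold in 301 of 330 combinations of comparison and alternative, 4 gained a call, and 25 changed sign without a call in either fit. For the listed genes named for calls that are not members, 50 of 255 combinations lost a call, 27 gained one and 4 changed sign. With the replicate block, WWTR1 in the clones was kept (adjusted p = 0.0284), the differences of responses of ARHGEF17 (0.164) and TMPRSS2 (0.167) were lost, and the control means of TAOK3, IGFBP3 and ARHGEF17 and the DMSO levels of GADD45A and ARHGEF17 gained a call. These fits count the 2 replicates of a line as independent. In the control lines the fit over both replicate sets does so too, with the line and not the pair as its block. The other main fits use 1 value per line.

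The replicate 2 correlation of YAP1 with WWTR1, -0.932, was -0.829 without the 2 most distant lines, and, chosen after seeing the data, -0.927 without the doubted lines and -0.757 over clones. That of TEAD1, -0.13, became 0.485, 0.163 and 0.647 in the same settings, and that of AMOTL2, 0.126, became -0.133 without the doubted lines. Of 20 means from other probe sets, 4 moved beyond the spread between pairs, all of control arrays: WWTR1 -1.29, YAP1 0.38 and LATS2 0.30 and -0.16. Signals near 12.1 or lower, as for CCN2 and for WWTR1 under MDV3100, limit what a difference can show.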
